A study of Drosophila melanogaster with 4 samples.

Results

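Compact autosomal regions at which LSD1 enrichment was listed in the same place in both replicates of fly head chromatin numbered 1386, of 11016 enriched regions in the combined list of the study. They were chosen from the lists of enriched regions as combined regions on 2L, 2R, 3L or 3R, from 1.3 to just under 4.0 kb wide, that shared at least 50% of their length, counted in both directions, with 1 region of each replicate list. The flies were mixed adults of Oregon-R, a laboratory stock kept as wild type, and neither mutants nor treatments were part of the study. Head chromatin was precipitated with the antibody Q3430 against LSD1 in 2 samples, and 2 samples of input chromatin carry the same replicate numbers, 1 and 2. A replicate list was taken as the call of a precipitated sample against the input of its number. Flies were raised in population cages and their heads collected with sieves, per the labels, which leave unsaid whether replicates are separate harvests, and differences between replicates may be technical. Region lists hold no expression values, so the labelled tissue was not checked against marker genes.

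LSD1 is a demethylase that removes methyl groups from lysines of histone H3. In flies it is the product of a suppressor of variegation, a class of genes found through their effect on gene silencing beside heterochromatin. It works in complexes with the corepressor CoREST and with histone deacetylases, and in mammals it also occurs at promoters and enhancers of genes that are switched off or down during differentiation. A compact region of the kind described here can hold a single promoter or enhancer, whereas broad domains span whole genes.

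Each region carries a score deposited by the authors, read here as the log2 enrichment of precipitated over input chromatin, where 1 stands for 2-fold. Each list has its own constant in the score, so a difference between lists is a difference of deposited values and not of occupancy. Read depth is unknown, and single regions therefore carry no counting interval. Because the lists themselves chose the regions, their widths, scores and distances are described without tests. Positions follow release 5 of the fly genome. They were not assigned to genes, since the gene table used here follows release 6, and no DNA sequence is printed, since no genome of release 5 was used here.

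Of the 4750 autosomal combined regions between 1.3 and 4.0 kb, the 1386 made up 29.2% (95% Wilson interval 27.9 to 30.5, which covers counting of regions only). The same overlap rule was met by 26.6% of all autosomal combined regions and by 25.4% of the whole combined list. Among the other 3364, a match of at least 50% was present in replicate 1 alone for 1006 regions, in replicate 2 alone for 1300 and in neither for 1058. With replicate 1 left out, 2686 regions met the rule, and with replicate 2 left out 2392 did. The 1386 regions had 1386 distinct partners in each replicate, which the rule all but forces. Separate combined regions cannot each share more than 50% of the same partner. At all but 85 of the 1386, each replicate listed a single overlapping region. Together they covered 3.50 Mb, or 3.62% of the length of the 4 arms, and 9.76% of the sequence within autosomal combined regions.

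Width marked where matching regions were found. Between 1.3 kb, the width of the narrowest replicate regions, and 1.6 kb only 9 of 1063 combined regions, 0.847%, were matched in both replicates. The share was 20.6% of 1428 regions between 1.6 and 2.0 kb, and 51.4% of 968 regions between 2.0 and 2.5 kb. From there it was lower, at 46.6% between 2.5 and 3.0 kb, 45.6% between 3.0 and 3.5 kb and 42.9% between 3.5 and 4.0 kb. The share of regions that had any base in common with both replicates did not level off in this way, going from 57.9% between 2.0 and 2.5 kb to 82.1% between 3.5 and 4.0 kb. Wide regions thus met both replicates more often, but a match in extent was most frequent between 2.0 and 2.5 kb. The Wilson interval there, 48.3 to 54.6%, overlapped that between 2.5 and 3.0 kb, 42.4 to 50.8%. A wider region can touch more replicate regions by construction. The overlap rule also favours regions about as wide as their partners. Autosomal replicate regions had median widths of 2180 bp in replicate 1 and 2136 bp in replicate 2, inside the class of the highest share. How far the rule alone sets these shares was not tested.

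**Figure D1:**
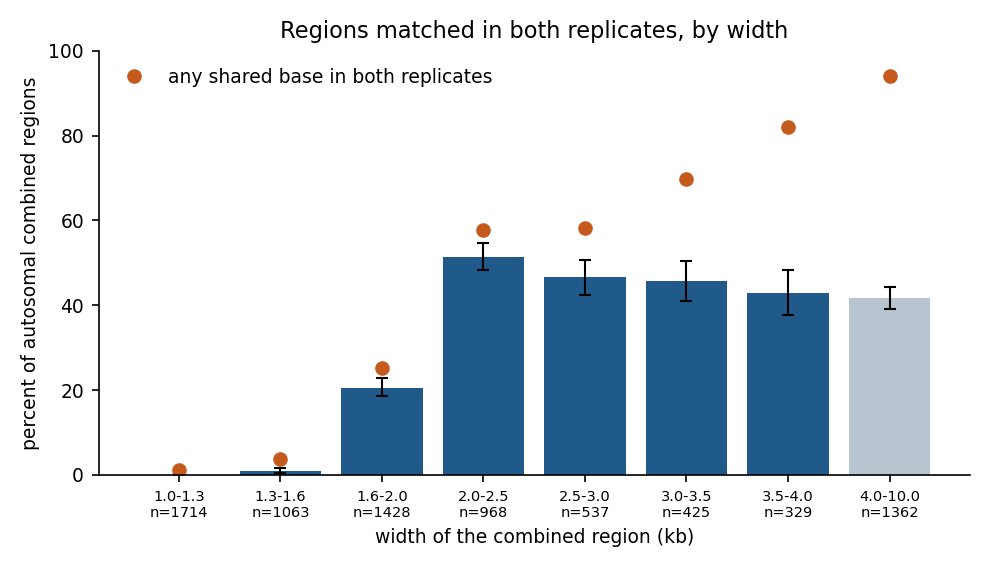
Bars give the percent of autosomal combined regions with a reciprocal overlap of at least 50% in both replicates by width class in kb (error bars, 95% Wilson intervals; dark bars, the width range from 1.3 to 4.0 kb), and points give the percent with any shared base in both. The bars are highest at 51.4% between 2.0 and 2.5 kb, while the points go on to 94.0% between 4.0 and 10.0 kb.

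The median width of the 1386 regions was 2357 bp, and the central 80% lay between 1890 and 3508 bp. Their partners were narrower, with a median of 2021 bp in replicate 1 and 2048 bp in replicate 2. The combined region was wider than both partners at 903 of the 1386 positions (65.2%) and narrower than both at 4. The left edge lay inside the combined region by a median of 87 bp in replicate 1 and 88 bp in replicate 2, and the right edge by 96.5 and 95.5 bp. These are medians of signed shifts: the partner lay wholly inside the combined region at 830 positions in replicate 1, at 646 in replicate 2 and at 331 (23.9%) in both. The stretch common to all 3 lists had a median length of 1734 bp, which was a median of 73.5% of the combined width. Only 9 positions had a common stretch under 500 bp, and none lacked one. The overlap rule all but forces a common stretch, since each partner must cover a large part of the same combined region. The rule also favours long stretches, so their length and share are not separate evidence of agreement between the replicates.

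Regions just inside the limits of the rule had ordinary scores, whereas those named just over the width limit scored higher than the widest inside it. These are single regions. Over whole classes the median score of matched regions was 0.64 between 3.5 and 4.0 kb and 0.74 between 4.0 and 10.0 kb. The narrowest were 3L:7496564-7498022 (1459 bp) and 2L:3152404-3153950 (1547 bp), with combined scores of 0.44 and 0.38, and the widest were 3R:22983182-22987158 (3977 bp) and 3R:24006800-24010774 (3975 bp), with 0.58 at each. Just over the width limit came 2R:2548564-2552570 (4007 bp) with 1.41 and 3L:20811266-20815278 (4013 bp) with 0.90. The lowest overlap inside the rule was 50% of the replicate 2 partner, at 2L:19859272-19861750 (0.51), and 50.01% at 2L:2975886-2978088 (0.39). Just outside were 2R:15385596-15389178 (0.68) and 3R:6818822-6822166 (0.50), with 49.96% in replicate 1 at each.

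Most of these regions had low combined scores, and a short tail had high ones. Combined scores ran from 0.068 to 1.91 with a median of 0.52, and the central 50% lay between 0.43 and 0.64. The median stands for 1.44-fold on the scale of the combined list, which has its own constant. The other autosomal regions of the same width range had a median of 0.42, which was lower by 0.11, and the SD of this difference over the 4 arms was 0.011. The arms share their libraries, so this SD does not measure the spread between replicates. The difference was 0.036 when the match in replicate 1 was not required and 0.064 when that in replicate 2 was not. A score of at least 1 was reached by 90 of the 1386, or 6.49%, and by 4 of the 3364 others, or 0.119%. Matched regions therefore made up 90 of the 94 autosomal regions of this width range with a score of at least 1, against 17.4% of the 3115 with a score between 0.25 and 0.5. The order was the opposite among the narrowest regions: between 1.6 and 2.0 kb the median was 0.36 for matched and 0.40 for the remaining regions.

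The strongest compact region was 2L:20119922-20122978, where the combined score was 1.91 (3.75-fold on the scale of the combined list). It scored 1.88 in replicate 1 and 2.00 in replicate 2 (mean 1.94 ± 0.086, SD, n = 2). Its left edges in the replicates were 20119959 and 20119899, but the right edge of replicate 2, at 20123820, lay beyond that of replicate 1, at 20122973. The second, 2L:16048692-16050874, scored 1.83 combined, with 1.94 and 1.77 in the replicates. Its replicate regions spanned 16048691 to 16050859 and 16048707 to 16050846, so that their centres were 1.5 bp apart. Both positions were high in both replicates.

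Several other strong regions were sharply placed but further apart in score. At 3L:11601510-11603834, combined 1.63, replicate 1 scored 2.03 and replicate 2 scored 1.06 (mean 1.55 ± 0.69, SD, n = 2), and the replicate centres were 7 bp apart. At 3R:7059752-7062110, combined 1.46, the scores were 1.76 and 1.12, with centres 12 bp apart. At 3R:25867844-25870076, combined 1.73, they were 2.18 and 1.24, with centres 51 bp apart. In all 3, replicate 1 was the higher. A pair of strong regions lay close together on 2R, at 19920330 to 19922806 (combined 1.66) and at 19954998 to 19957616 (combined 1.72), with replicate centres 79.5 and 108.5 bp apart. At 3R:18187082-18189426, combined 1.64, the centres were 95 bp apart. On 2L, the region at 10219430 to 10222372 went the other way in score, with 1.45 in replicate 1, 1.74 in replicate 2 and 1.49 combined. The eighth of the strongest, 2R:16848-19632, had a combined score of 1.50 (1.59 in replicate 1, 1.49 in replicate 2) and lay at the very start of the arm sequence. The remaining regions among the top 3 of 3L were 3L:23091690-23094106 (2.12 in replicate 1, 0.78 in replicate 2, 1.46 combined) and 3L:18613746-18616106 (1.66, 0.88 and 1.28).

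At the lower end, 52 regions had a combined score under 0.25, and every one of them was between 1569 and 1959 bp wide. The lowest were 3L:19591250-19592916 (0.068 combined, 0.14 in replicate 1, 0.34 in replicate 2), 2L:18838836-18840718 (0.082, 0.34 and 0.20) and 3R:5229030-5230900 (0.083, 0.26 and 0.23). At these 3 the replicate centres were 215 to 280 bp apart. Regions with a score of at least 1 were between 2125 and 3899 bp wide, and 42 of the 90 fell between 2100 and 2500 bp. Wider regions had higher scores over all 1386 (Spearman coefficient of width and score 0.63, a description across regions of shared libraries).

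Replicate scores were compared region by region. The median was 0.60 in replicate 1 and 0.76 in replicate 2, and replicate 2 had the higher score at 1034 of the 1386 regions (74.6%), by a median of 0.16. The combined score lay below both replicates at 859 regions, between them at 527 and above both at none. Replicate 2 was higher at 83.5% of the 541 regions with a combined score between 0.25 and 0.5, but at 32 of the 90 regions with a score of at least 1 (35.6%). In the latter the medians were 1.28 in replicate 1 and 1.16 in replicate 2. These classes were cut on the combined score, which followed replicate 1 (Spearman coefficient 0.80) more than replicate 2 (0.57).

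After the median difference of 0.16 was removed, 508 regions (36.7%) agreed within 0.1 and 96 (6.93%) differed by more than 0.5. Of these 96, replicate 1 was relatively higher at 72 and replicate 2 at 24. The 72 had medians of 1.17 in replicate 1 and 0.58 in replicate 2, and the 24 had 0.38 and 1.14. Of the 72, 18 lay within 2 Mb of the centromere-proximal end of their arm, where 99 of all 1386 lay, and of the 24 none did. The widest gap was at 3R:975442-979228, with 2.45 in replicate 1, 0.57 in replicate 2 and 1.32 combined. There replicate 1 listed 2393 bp and replicate 2 listed 3672 bp, so the partners also differed in extent. At 2L:13020334-13022518 the scores were 1.93 and 0.23, and at 2L:6123918-6126056 they were 1.65 and 0.18. The smallest differences were at 2R:5946644-5948726 (0.49 in replicate 1, 0.64 in replicate 2), 3R:15991620-15994134 (0.76 and 0.92) and 2R:10238952-10240794 (0.48 and 0.64), all of middle or low score.

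The order of the scores was shared only in part. Across the 1386 regions the Spearman coefficient between the replicates was 0.31 and Pearson's r was 0.39, both descriptions over regions that share their libraries. Over the 1296 regions with a combined score below 1 the Spearman coefficient was 0.20, and with the rank of the combined width taken out it was 0.11 over all 1386. By width it was 0.20 between 1.6 and 2.0 kb and 0.020 between 2.0 and 2.5 kb. It was 0.17 between 2.5 and 3.0 kb, 0.19 between 3.0 and 3.5 kb and 0.38 between 3.5 and 4.0 kb. A cut on the combined score narrows the range of both replicate scores, which lowers such a coefficient by construction. Width classes can do the same, since width and score were related in each replicate (Spearman coefficient 0.67 in both). The class from 2.0 to 2.5 kb, with the most frequent match in extent, thus had replicate scores with almost no common order. Of the highest 10% by score in each replicate, 139 regions, 67 (48.2%) were the same, and all 67 were also among the highest 139 of the combined list. The highest 139 of the combined list shared 119 with replicate 1 (85.6%) and 79 with replicate 2 (56.8%).

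**Figure D2:**
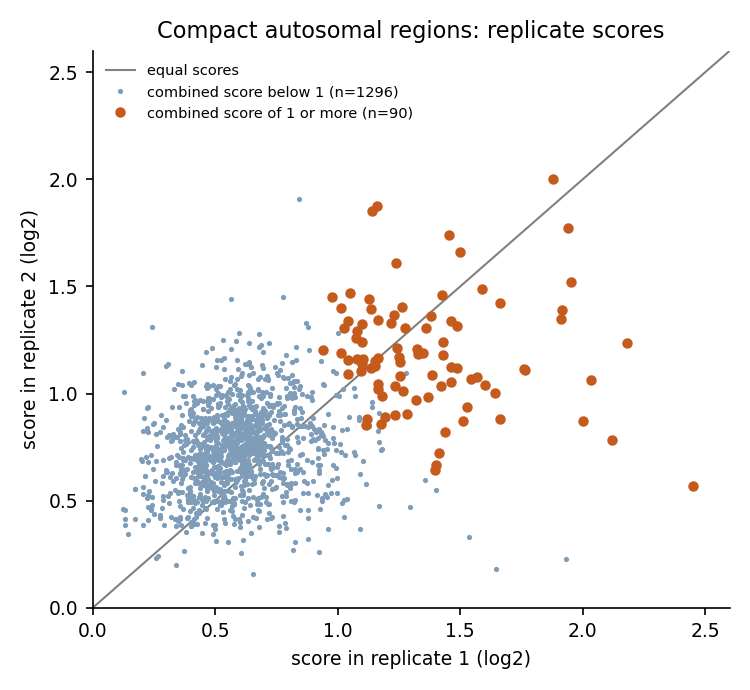
Each point is 1 of the 1386 compact regions, with its deposited log2 score in replicate 1 on the x axis and in replicate 2 on the y axis, and the line marks equal scores. Most points form 1 cloud around the medians of 0.60 and 0.76, and the 90 regions with a combined score of at least 1 (orange) lie mostly below the line.

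The centres of the replicate regions were a median of 229 bp apart, a distance that the overlap rule itself bounds, and the median of the signed shift was 3 bp. Centres lay within 100 bp at 376 regions (27.1%), within 500 bp at 1040 (75.04%) and more than 1 kb apart at 80 (5.77%). The closest pairs were at 3L:21721110-21722828 (0.5 bp apart, combined score 0.13), 2L:21898342-21900510 (1 bp, 1.46) and 3R:39150-41282 (1 bp, 0.44), so close centres occurred at weak and strong regions alike. The farthest were at 3L:5052418-5055750 (2344 bp), 2L:18060192-18063706 (2162 bp) and 3L:17109062-17112792 (1973 bp), with combined scores of 0.50, 0.50 and 0.60. In the first of these, replicate 2 listed 5688 bp against 2068 bp in replicate 1.

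The distance between centres was not ordered by score from end to end. Its median was 130 bp below a score of 0.25, 242 bp between 0.25 and 0.5, 308 bp between 0.5 and 0.75, 140 bp between 0.75 and 1, and 101 bp from 1 upwards. Both edges agreed within 100 bp between the replicates at 23.3% of the 90 strongest regions, and at 5.73% and 7.88% in the middle classes from 0.25 to 0.75. The Spearman coefficient of score and distance over all 1386 was -0.079. The overlap rule allows narrower regions only smaller shifts, and the regions below 0.25 were at most 1959 bp wide.

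**Figure D3:**
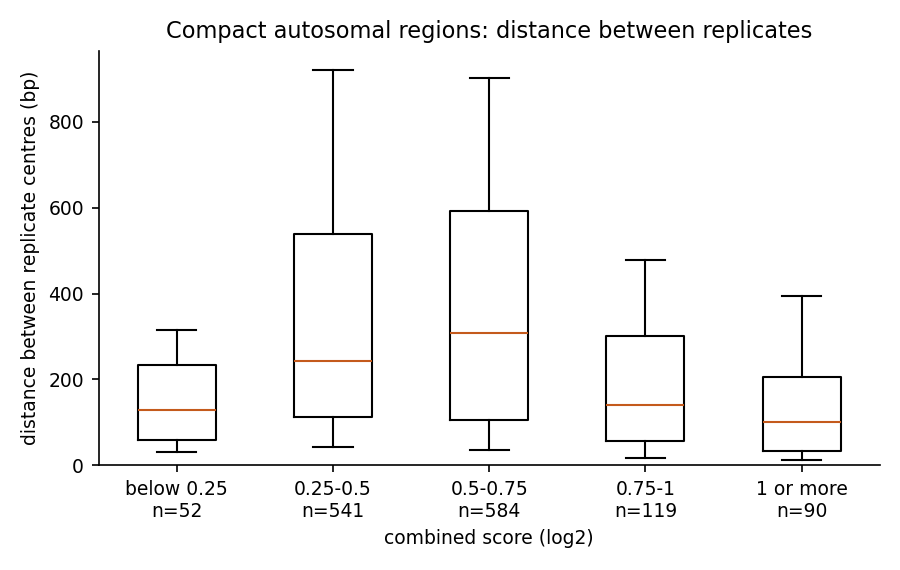
Boxes show the distance in bp between the centres of the replicate 1 and replicate 2 regions by class of combined log2 score (line, median; box, quartiles; whiskers, 10th and 90th percentile). The median is 308 bp between 0.5 and 0.75 and 101 bp at scores of 1 or more.

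Density on the 4 arms ranged from 12.5 to 16.9 regions per Mb. There were 306 on 2L, 358 on 2R, 306 on 3L and 416 on 3R, or 13.3, 16.9, 12.5 and 14.9 per Mb in this order. The share of width-range regions that were matched went from 26.7% on 3L (95% Wilson interval 24.2 to 29.3) to 32.8% on 2R (30.1 to 35.6). Median combined scores were 0.53, 0.54, 0.52 and 0.52 in the order 2L, 2R, 3L and 3R. Strong regions with a score of at least 1 numbered 19, 33, 18 and 20. The Spearman coefficient between replicates was 0.30 on 2L, 3L and 3R and 0.36 on 2R. For comparison, the same width and overlap rule on X gave 292 of 1291 regions, or 22.6% (20.4 to 24.98), and 13.0 per Mb. On X a match in replicate 1 alone was found for 33.5% of width-range regions and in replicate 2 alone for 16.5%, whereas the autosomes had 21.2% and 27.4%. The X-linked regions had a median combined score of 0.69, with 0.82 and 0.90 in the replicates, and centres a median of 230 bp apart. The higher score on X was not limited to matched regions. Width-range regions matched in neither replicate had a median of 0.54 on X and 0.41 on the autosomes. These differences between chromosomes were not tested.

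Toward the centromere, regions of this width were sparser, and the matched ones had higher median scores on 2L, 2R and 3L but not on 3R. In the first 1 Mb from the centromere-proximal ends of the 4 arm sequences there were 20.0 combined regions of this width per Mb, against 51.0 beyond 2 Mb, whereas matched regions were at 11.2 and 14.5 per Mb. The matched share was therefore 56.2% of 80 regions (45.3 to 66.6) in the first 1 Mb, 36.7% of 147 between 1 and 2 Mb, and 28.5% of 4523 beyond 2 Mb. By arm it was 14 of 21 on 2L, 12 of 19 on 2R, 4 of 8 on 3L and 15 of 32 on 3R in the first 1 Mb. Medians of the combined score were 0.69 in the first 1 Mb and 0.52 beyond 2 Mb, with 0.84 and 0.59 in replicate 1 and 0.81 and 0.76 in replicate 2. The difference between these medians was thus larger in replicate 1, and replicate 2 had the higher score at 19 of the 45 regions there against 981 of 1287 beyond 2 Mb. A score of at least 1 was found at 14 of the 45 (31.1%) and at 70 of the 1287 (5.44%). Arms were unequal in this: 7 of the 14 lay on 2R, where the median combined score in the first 1 Mb was 1.14, and 3R had a median of 0.50, against 0.52 beyond 2 Mb. The opposite ends of the arms, within 1 Mb of the tips, held 62 regions at 15.5 per Mb with a median of 0.51.

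**Figure D4:**
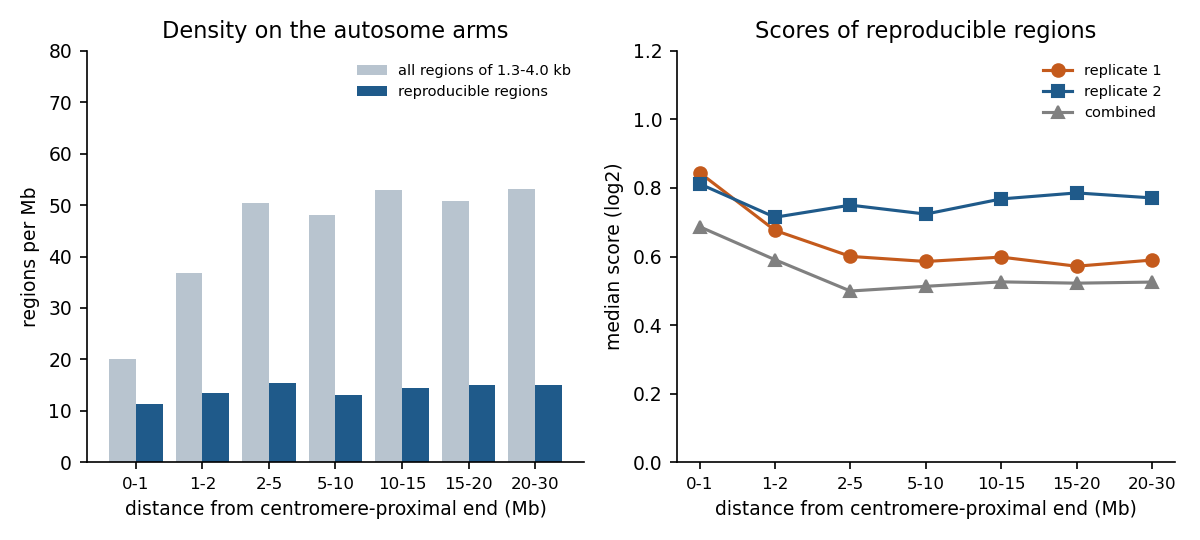
Left, regions per Mb by distance in Mb from the centromere-proximal end of the 4 autosome arms, for all combined regions of the width range and for the reproducible ones; right, the median log2 score of the reproducible regions in each list. In the first 1 Mb all regions of this width are at 20.0 per Mb and reproducible ones at 11.2, and the replicate 1 median is 0.84 against 0.59 beyond 2 Mb.

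As chosen by the rule, reproducible compact regions stood somewhat apart from other enrichment. The median gap to the next combined region was 1578 bp, against 885 bp for the other width-range regions, and it was 2910 bp for the 90 strongest. Of the 90, 14 lay in the first 1 Mb from the centromere-proximal ends and 6 between 1 and 2 Mb. Matched regions had a median gap of 4141 bp in the first 1 Mb and 1445 bp beyond 2 Mb. Whether position accounts for the wider gaps of the 90 was not tested. The gap of matched regions moved with the overlap asked for, from 1165 bp with any shared base to 2159 bp with 70%. Whether the rule itself selects isolated regions was not tested. Gaps over 10 kb were found at 9.09% of the 1386, at 21.1% of the 90 and at 4.96% of the others. The region farthest from any other was 3L:24528712-24531852, at the centromere-proximal end of the arm, with a gap of 460.0 kb and scores of 1.18 combined, 1.27 in replicate 1 and 1.01 in replicate 2. The next were 3L:23330082-23333386 (87.2 kb, 0.53 combined) and 2L:21898342-21900510 (68.6 kb, 1.46 combined). All 3 lay within 1.21 Mb of the centromere-proximal end, where few combined regions were listed.

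**Figure D5:**
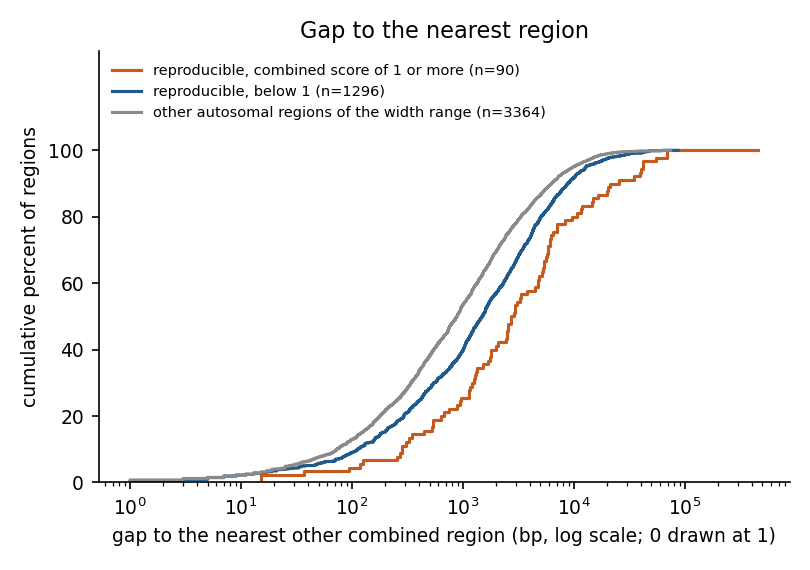
Cumulative percent of regions by the gap in bp to the nearest other combined region (log scale), for reproducible regions with a combined score of at least 1 (n = 90), those below 1 (n = 1296) and the other autosomal regions of the width range (n = 3364). The curve of the strongest regions lies farthest to the right, with a median of 2910 bp against 1498 and 885 bp.

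Broad domains lay at similar distances from compact regions and from their unmatched counterparts. Regions of at least 10 kb lay at a median distance of 41.7 kb from the 1386 and of 39.9 kb from the others, and 12.3% and 12.2% were within 5 kb of one. The 90 strongest were farther away, at a median of 54.8 kb, with 4 (4.44%) within 5 kb and 36 (40.0%) more than 100 kb from the nearest domain. Since 14 of the 90 lay in the first 1 Mb from the centromere-proximal ends, position may enter into these distances, which was not tested. Within 100 kb around a region, other combined regions covered a median of 34.1% for the 1386, 27.2% for the 90 and 39.2% for the others. The nearest neighbour of a compact region was another of the 1386 in 306 cases (22.1%), where they make up 16.1% of all autosomal combined regions.

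Compact regions occurred singly and in groups. The median distance from one to the next along an arm was 43.8 kb, and 187 of 1382 such distances (13.5%) were under 5 kb. Chains with less than 5 kb between neighbours numbered 155 and held 342 regions (24.7%), with at most 5 in a chain. Of 969 consecutive bins of 100 kb, 262 held none, 320 held 1, and 27 held 5 or more. The longest stretch without one was 672 kb, at 3R:1728093-2400169.

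The densest 100 kb lay on 2L from 10310254 to 10410253 and held 11 of the 1386, among 14 combined regions in all, where the autosomal average is 1.43. A second window on the same arm, from 10176962 to 10276961, held 9 among 13 combined regions, and a window on 2R from 19882050 to 19982049 held 10 among 12. Most combined regions in these 3 windows were compact and matched in both replicates. The windows were picked for holding many of the 1386, so high counts follow from the choice. By contrast, 3R:18143902-18243901 held 8 among 17 and 2R:4634150-4734149 held 7 among 18. In the 2L window of 11, the strongest were 2L:10313380-10315744 (1.04 combined, 1.14 in replicate 1, 1.12 in replicate 2), 2L:10406942-10409314 (0.99, 1.00 and 1.28) and 2L:10365618-10367696 (0.92, 1.07 and 0.71). The others were 2L:10394394-10397604 (0.83), 2L:10332756-10335922 (0.75), 2L:10355626-10357762 (0.74), 2L:10310254-10313106 (0.51), 2L:10403184-10406026 (0.49), 2L:10375230-10377244 (0.45), 2L:10379032-10381032 (0.43) and 2L:10361992-10363948 (0.22). Replicate centres were at most 15 bp apart at 6 of the 11, among them the weakest, at 6.5 bp, and 159 to 606.5 bp apart at the other 5, among them 2L:10406942-10409314, at 255.5 bp.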

How the data were processed

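DNA from LSD1 immunoprecipitation and from input was sequenced in 2 samples each. Per the submitters' processing notes, Bowtie 0.12.7, a short-read aligner, was used. Per the file headers, positions follow FlyBase release 5. Neither the labels nor the headers name the region caller, its threshold, or how replicates were merged for the combined list. The authors deposited 1 score per region, taken as log2 because 2 to the power of the score, after removal of 1 constant per list, was a ratio of whole numbers (denominators up to 6000, relative tolerance 1e-12) in 10893 of 11016 combined regions, 8110 of 8115 of replicate 1 and 9911 of 9911 of replicate 2.

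Enriched regions alone were used, and 3 entries of depletion were left out. Each combined region was paired with the region of highest reciprocal overlap in each replicate. Tables were made with pandas 2.3.3 and scipy 1.17.1 in Python 3.11.15, and the overlap rule was tested on simulated data. Read depth is unknown, so precision per region cannot be given. The regions, the classes and the alternatives were chosen with earlier results of these data known. Regions named in the text were the 10 with the highest and the 3 with the lowest scores, the top 3 of each arm, the extremes of replicate difference, centre distance and isolation, the densest 100 kb window and the regions at the limits of the rule. Alternatives changed the overlap, the width limit, the score limit, the replicate and the anchoring list.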

Additional observations from a re-analysis of the deposited data

How the results depend on the processing

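No paired analysis was possible because no test was made: each replicate list was taken as one call of a precipitated sample against the input of its number. Of 48 alternatives, 16 stayed within the limits set (1.5 times for the count, the Wilson interval for the share, 1 SD over the 4 arms otherwise), 32 moved and 0 turned direction. The arms share their libraries, so the SD over arms is a yardstick for moves and not a spread between replicates. The median replicate difference in score stayed within its limit in all 6 alternatives run for it (0.14 to 0.16). The number of compact regions was 879 with a reciprocal overlap of at least 70%, 864 in the upper 50% by score, and 2392 to 2686 with 1 replicate left out. The share was 38.7% with any shared base, 35.9% and 18.5% with an overlap of 30% and 70%, 26.3% up to 3.0 kb, 51.8% in the upper 50% by score, 40.1% of replicate 1 regions when that list was the anchor, and 50.4% to 56.5% with 1 replicate left out. The Spearman coefficient between replicates was 0.23 with any shared base, 0.25 and 0.42 with 30% and 70%, 0.24 up to 3.0 kb and 0.11 in the upper 50% by score. The median distance between centres was 344.5, 303.5, 150 and 199 bp in the first 4 of these, and 266 bp with replicate 1 as anchor. The median gap to the next region was 1165 bp with any shared base, 1250 and 2159 bp with 30% and 70%, and 1225 to 1295 bp with 1 replicate left out. The difference in median score from unmatched regions was 0.091 with any shared base, 0.084 up to 3.0 kb, 0.083 in the upper 50% by score, and 0.036 to 0.064 with 1 replicate left out. A stricter overlap selects closer centres by construction. By construction too, the number and the share can only rise with a looser overlap or with 1 replicate left out, and only fall with a stricter overlap. The cut to the upper 50% by score can only lower the number, and it narrows the range of scores, which lowers the Spearman coefficient. For the other moves the cause was not tested.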
